A study of Rattus norvegicus with 27 samples.

Results

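The genes described here mark the cells of brain blood vessels: endothelial cells, the pericytes and smooth muscle cells that wrap them, and the basement membrane between. They were 34 genes named by their rat symbols (22 endothelial, 5 pericyte, 4 smooth muscle and 3 basement membrane genes), found by NCBI gene ID as 34 of the 36865 rows of the count table. RNA came from homogenised bilateral medial prefrontal cortex (mPFC) of 27 adult male Wistar rats, 1 library per rat. All rats had gone through a series of anxiety tests, were killed straight from the home cage in a resting state, and form a single group with no control group. The study picked these rats from 2 cohorts to span the range of anxiety scores, the labels do not give the cohort of each rat, and the individual scores were not used here. The labels name fear conditioning, acoustic startle and, as the treatment, learned helplessness, while the study's methods describe repeated anxiety tests, and the labels and the methods also differ on the brain section taken. The questions asked were therefore how much each vascular gene varied from rat to rat and which of them varied together.

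Brain endothelial cells line the vessels and form the blood-brain barrier through sealed junctions, few vesicles and a set of transporters that admit glucose and hormones and pump drugs back into the blood. Pericytes sit on capillaries inside the shared basement membrane and signal with the endothelium through PDGF and angiopoietin pathways, and smooth muscle cells ring the arterioles and the larger vessels of the brain surface. In homogenised tissue, fewer cells of a type and less RNA per cell cannot be told apart. Values below are normalized read counts, that is, read counts divided by a median-of-ratios size factor for each library, and they compare rats within a gene but not genes with each other, since transcript lengths were not used.

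Total counts per library ran from 4907255 to 12771309, with a median of 8168801. The 16 libraries numbered up to 31 were the shallower ones (4907255 to 8568317) and the 11 numbered from 32 the deeper ones (9404220 to 12771309), so library number and depth cannot be told apart. Libraries rn-12 and rn-20 had 17618 and 15162 reads of 18S ribosomal RNA and no other library had more than 7140. Marker genes of cortical neurons, astrocytes, oligodendrocytes and microglia were read in every library, and their 26 rows had none at 0. Of the choroid plexus markers, Ttr had 0 to 16 normalized counts and Folr1 had no reads.

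Reads of 33 of the 34 members were found in all 27 libraries, the lowest count being 18 reads of Anpep. The exception was Col4a2 (gene ID 306628), the partner chain of Col4a1 in the type IV collagen of vascular basement membrane. Its row held 0 reads in every library, which allows at most 2.35e-05% to 6.11e-05% of a library's counts, a limit that covers counting error only. Rows of 4 further basement membrane genes outside the members (Lamb1, Hspg2, Nid1 and Lama2) also held only zeros, as did 21787 rows of the table in all, so a zero row says only that the gene is listed at 0, and the annotation used for counting is not given in the sources used here. Col4a1 (gene ID 290905), by contrast, had a mean of 412 ± 62.0 normalized counts (SD, n = 27). The pair lies head to head, and the interval between the starts of the RefSeq transcripts in GRCr8 (chr16:84885521-84885596, plus strand, reading from the Col4a2 start to the Col4a1 start) is shown in full because it holds 76 bases only:
Col4a2 to Col4a1: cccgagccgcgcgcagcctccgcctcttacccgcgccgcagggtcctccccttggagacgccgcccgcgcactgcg

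The other sequence shown is that of the member that varied most, Acta2, which encodes smooth muscle alpha-actin. The 250 bases before its RefSeq start in GRCr8 (chr1:241172504-241172753, minus strand) hold a pair of matches, in capitals, to a CArG box in which 1 core letter is G or C, at 134 and 84 bases before the start. The CArG box is the motif of serum response factor, the regulator of many smooth muscle genes.
Acta2: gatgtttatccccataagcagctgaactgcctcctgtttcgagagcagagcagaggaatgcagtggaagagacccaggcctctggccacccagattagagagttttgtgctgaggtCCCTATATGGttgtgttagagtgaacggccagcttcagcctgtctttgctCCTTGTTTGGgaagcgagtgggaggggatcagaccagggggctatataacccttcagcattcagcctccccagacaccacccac
This relaxed form was chosen after the letters were seen. On either strand it was found in 8.10% of all 33469 promoter windows of 300 bases and in 5 of the 23 windows of members (Acta2, Kdr, Ocln, Slco1a4 and Tie1). Of 13 windows of smooth muscle genes outside the members, 0 held the relaxed or the strict form. The strict CArG box was found in 1.64% of all windows and in 0 of the 23 members' windows. The ETS letters CCGGAAG, the core bound by endothelial ETS factors, were found in 8.75% of all windows and also in 0 of 23. These windows covered 22 members. Tek, Cdh5, Pecam1, Esam, Slco1c1, Vwf, Sox17, Sox18, Pdgfrb, Tagln, Myh11 and Myl9 had none.

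**Figure D1:**
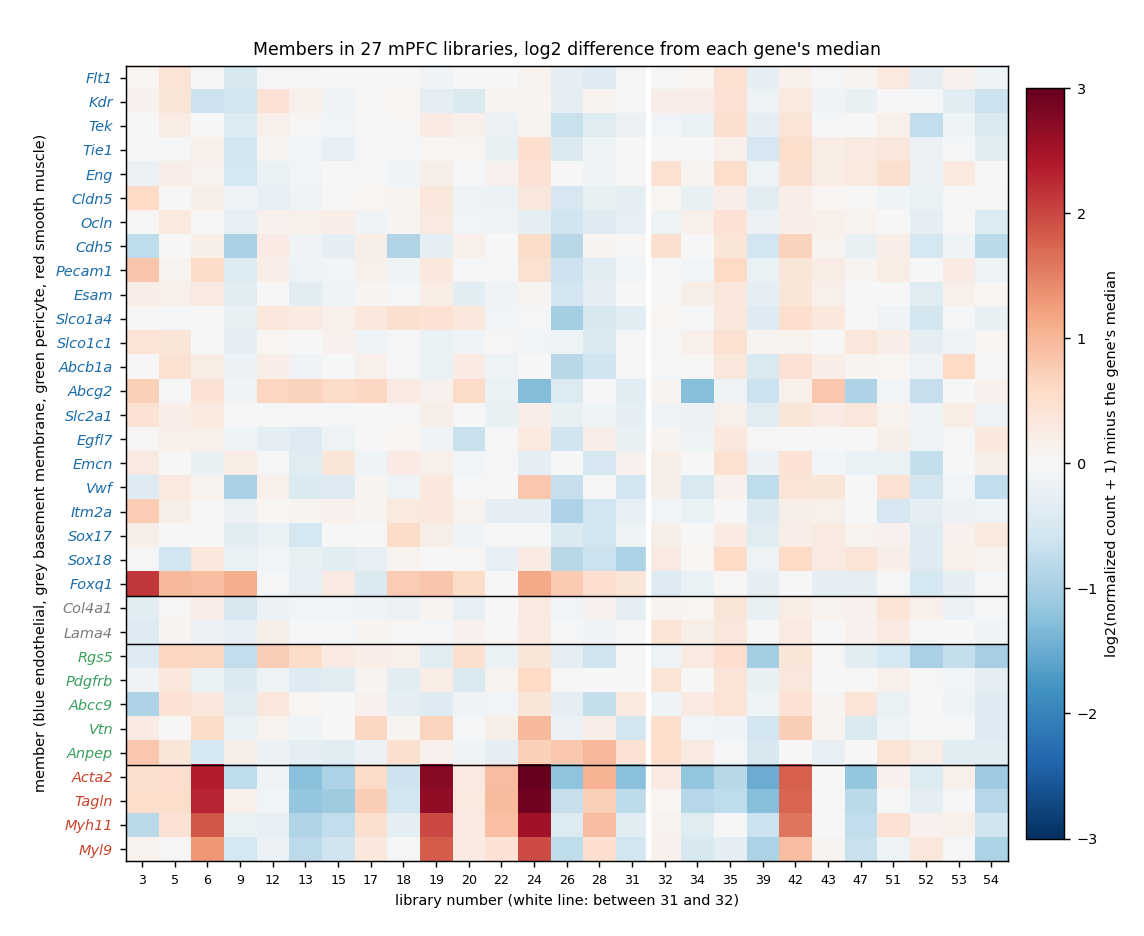
Levels of the 33 members with reads in each of the 27 libraries, as log2(normalized count + 1) minus the gene's own median, with the members in rows by cell class and the libraries in columns by number; colours end at 3 log2 units either way. The 4 smooth muscle rows are darkest in rn-6, rn-19, rn-24 and rn-42, and the Foxq1 row is redder to the left of the white line than to the right.

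Levels of the endothelial receptors ranged 1.91-fold to 2.35-fold between rats. The VEGF receptor Flt1, which also acts as a decoy for its ligand, had 595 normalized counts in its lowest library (rn-9), a median of 831 and 1140 in its highest (rn-35). Kdr, the main signalling receptor for VEGF-A, ranged from 66.5 through a median of 104 to 142. The highest library thus held 1.91 times the lowest for Flt1 and 2.13 times for Kdr, with SDs of log2 levels of 0.21 and 0.30. The angiopoietin receptor Tek (Tie2) ranged from 119 to 279 around a median of 199. Its partner Tie1, an orphan receptor that modulates Tek, ranged from 130 to 274 around 190. Eng, the TGF-beta co-receptor endoglin, ranged from 163 to 338 around 236. Library rn-35 was highest for Flt1, Tek and Eng.

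Of the junction and adhesion genes, Cldn5, the claudin that seals the barrier's tight junctions, had 687 normalized counts in rn-26, a median of 976 and 1471 in rn-3. Ocln, another tight junction protein, ranged from 80.0 to 164 (median 121). Esam, an endothelial adhesion molecule, ranged from 127 to 245 (median 190). Library rn-26 was the lowest for these 3 genes and for Pecam1, the platelet-endothelial adhesion molecule, which ranged from 87.2 to 240 around a median of 134. Cdh5, the endothelial cadherin of adherens junctions, spread more widely, from 32.9 in rn-9 through 65.7 to 107 in rn-42, with an SD of 0.46 on the log2 scale.

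Barrier transporters differed in how steady they were. Slc2a1, the glucose transporter GLUT1, was among the steadiest members, from 1003 to 1725 normalized counts around a median of 1286 (SD of log2 levels 0.21). Slco1c1, the thyroxine transporter, was as steady, from 506 to 936 around 684 (0.21). Slco1a4, an organic anion transporter, ranged from 262 in rn-26 through 532 to 753 in rn-42. Of the drug efflux pumps, Abcb1a (P-glycoprotein) ranged from 187 to 504 around 335, while Abcg2 (breast cancer resistance protein) ranged from 57.0 in rn-24 through 141 to 246 in rn-43. The SD of Abcg2, 0.58, was at the 95.3th percentile of all genes with a mean of at least 10 counts, against the 57.6th for Slc2a1.

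Among other endothelial genes, Egfl7, a secreted factor that guides vessel formation, ranged from 107 to 214 around a median of 171. Emcn, a sialomucin of venous and capillary endothelium, ranged from 45.2 to 102 around 74.9, and counting error alone was 39.4% of its variance. Vwf, the clotting factor carrier enriched in larger vessels, ranged from 226 in rn-9 through 447 to 785 in rn-24, and Itm2a, a membrane protein of endothelium, from 362 in rn-26 through 690 to 1167 in rn-3. The endothelial transcription factors Sox17 and Sox18 ranged from 62.0 to 135 (median 92.0) and from 40.7 to 121 (median 79.9). Foxq1, a forkhead factor of brain endothelium, ranged most of the 22, from 39.9 in rn-52 through 57.9 to 255 in rn-3, where the second highest library had 128. In the basement membrane, Col4a1 ranged from 295 to 544 around 410 and the laminin chain Lama4 from 156 to 271 around 204, the latter with the lowest SD of all members, 0.18.

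Pericyte genes spread somewhat more. Rgs5, a regulator of G-protein signalling and a standard pericyte marker, had 42.6 normalized counts in rn-39, a median of 87.9 and 146 in rn-12. Pdgfrb, the PDGF receptor of mural cells, ranged from 250 to 508 around 337. Abcc9, the channel regulator SUR2, ranged from 50.5 to 133 around 97.4. Pdgfrb was highest in rn-24 and Abcc9 in rn-5, so these 3 markers had different extreme rats. Vtn, the secreted protein vitronectin, ranged from 173 in rn-39 through 256 to 502 in rn-24. Anpep, an aminopeptidase of pericytes and fibroblasts, had the fewest reads and ranged from 31.1 to 90.4 around 45.0.

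Smooth muscle genes spread far more than any other class. Acta2 had 37.9 normalized counts in rn-39, a median of 108 and 912 in rn-24, a 24-fold range. Tagln, the actin-binding protein SM22-alpha, ranged from 55.7 through 136 to 1020, an 18.3-fold range. Myh11, the smooth muscle myosin heavy chain, ranged from 109 through 206 to 1194, which is 10.9-fold. Myl9, the regulatory myosin light chain, ranged from 67.4 through 132 to 514, which is 7.63-fold. All 4 were highest in rn-24 and second highest in rn-19. Acta2 was at 912, 717, 552 and 379 in rn-24, rn-19, rn-6 and rn-42, and at no more than 222 in the other 23 libraries.

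The SD of log2 levels had a median of 0.28 over the 22 endothelial members (0.21 to 0.64), 0.20 over the 2 basement membrane members with reads, 0.39 over the 5 pericyte members and 1.03 over the 4 smooth muscle members (0.76 to 1.27), beside 0.19 over all genes with a mean of at least 10 counts. A chi-square dispersion test of each gene's counts against counting error alone, with Benjamini-Hochberg adjustment over those 11730 genes, called 89.8% of them and 33 of 33 members, so variation beyond counting was the rule in this table and is no result about the members. Without rn-19 and rn-24 the smooth muscle median was 0.80, and within the libraries numbered up to 31 and from 32 it was 1.15 and 0.73, where the endothelial median was 0.28 and 0.25 and that of all genes 0.19 and 0.14.

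**Figure D2:**
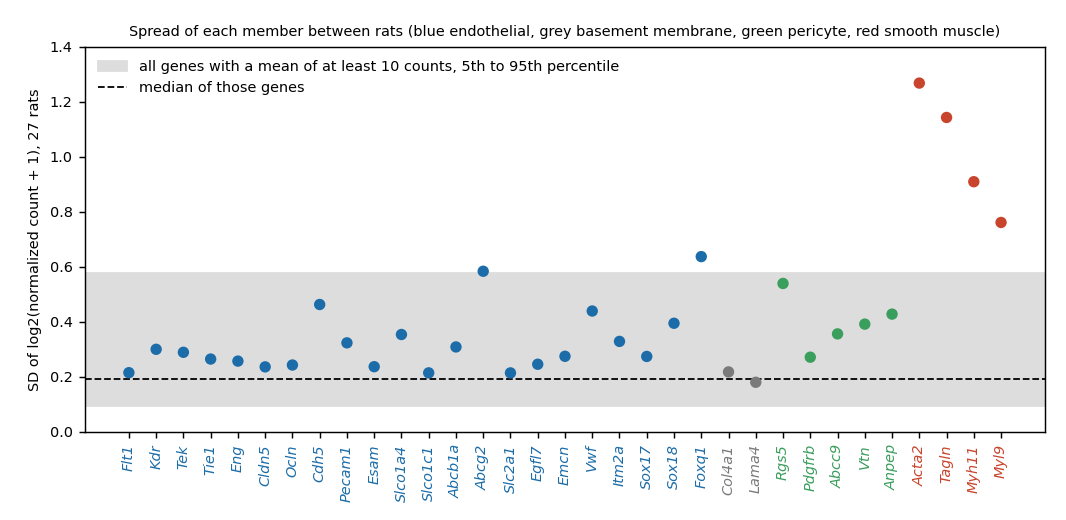
SD of log2(normalized count + 1) over the 27 rats for each of the 33 members, with a grey band from the 5th to the 95th percentile of all genes with a mean of at least 10 counts and a dashed line at their median of 0.19. Red points, the 4 smooth muscle members, lie at 0.76 to 1.27 above the band, as do blue Foxq1 at 0.64 and, at its edge, Abcg2 at 0.58, while grey Lama4 at 0.18 is the only point under the dashed line.

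Several endothelial genes had the same highest or lowest rat. Library rn-35 was the highest for 8 of the 22 endothelial members and rn-3 for 5, while rn-26 was the lowest for 7 and rn-9 for 5. Summed over the 22 members, endothelial levels ran from 5593 normalized counts in rn-26 to 9625 in rn-3, a 1.72-fold range. Summed smooth muscle levels ran from 290 in rn-13 to 3640 in rn-24, a 12.5-fold range. Library rn-42 lay above the gene's median for 30 of 33 members and rn-39 for 2 of 33. Such counts were not made over all genes, so they cannot be read as a trait of vascular genes.

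Mutual correlation followed cell class unevenly. Over all pairs of endothelial members the median Spearman correlation was 0.41 (231 pairs, 212 of them above 0), beside −0.0049 over all 68790585 pairs of genes with a mean of at least 10 counts. Pericyte pairs had a median of 0.24 (10 pairs), and the 6 smooth muscle pairs a median of 0.89 (0.84 to 0.96). Between classes the medians were 0.26 for endothelial with pericyte members, 0.23 for endothelial with smooth muscle and 0.20 for pericyte with smooth muscle, and the 2 basement membrane members with reads had 0.31 with endothelial, 0.33 with pericyte and 0.26 with smooth muscle members (0.41 with each other). The medians of the pericyte pairs and of pericyte with endothelial members were close, and which was higher changed with the setting, as with Pearson correlation (0.26 and 0.25). These medians are descriptions over the same 27 libraries, and pairs that share a gene are not independent.

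Endothelial pairs had a median of 0.33 in the 16 libraries numbered up to 31 and 0.55 in the 11 from 32. For smooth muscle pairs it was 0.93 and 0.85. Pericyte pairs had 0.02 and 0.48. With rn-6, rn-19, rn-24 and rn-42 left out, a choice made after seeing the data, the smooth muscle median was 0.82 and the endothelial one 0.40, while that between both classes was 0.14.

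**Figure D3:**
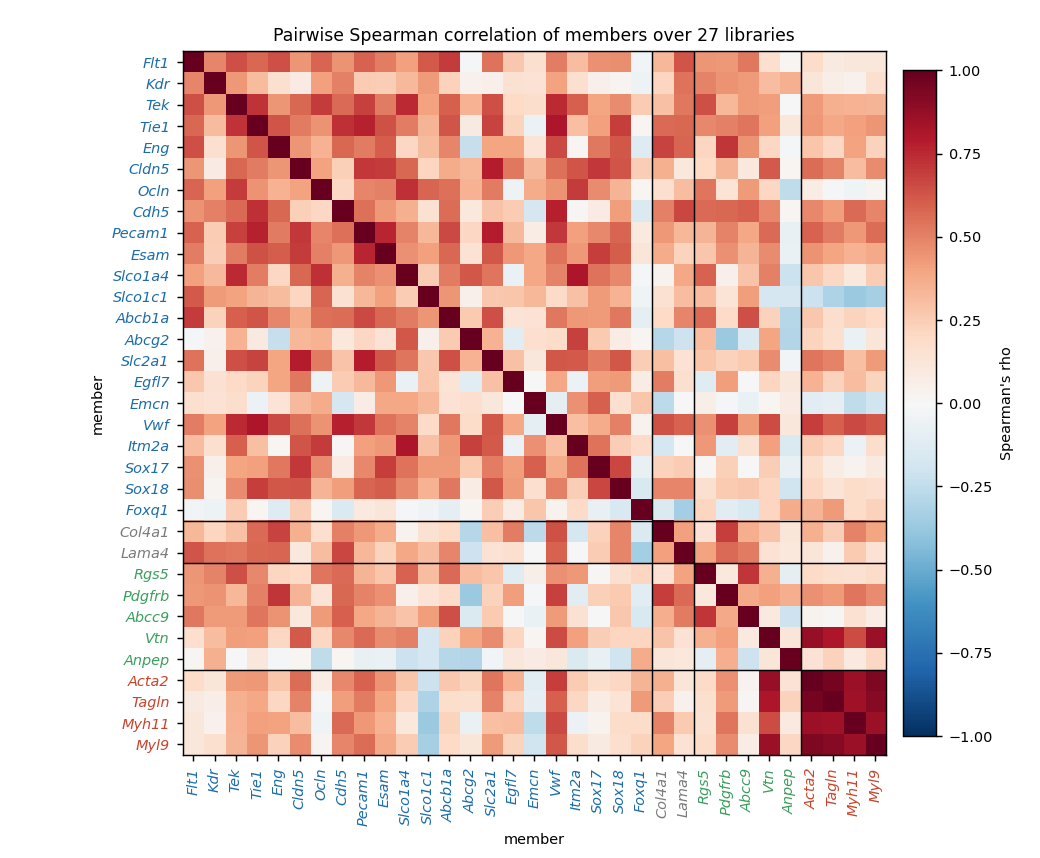
Spearman correlation over 27 libraries of every pair of the 33 members, with members on both axes in the order of their classes, red for positive and blue for negative values, and black lines between the classes. The smooth muscle block at the lower right is dark (0.84 to 0.96) and the Vtn row above it is dark in the same columns, while the Foxq1, Emcn, Abcg2 and Anpep rows are pale.

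Single members departed from their class. Vtn had a median correlation of 0.83 with the 4 smooth muscle members and 0.24 with the other pericyte members, and its best partner was Acta2 (0.87). Rgs5 and Abcc9 went with each other (0.71), and Pdgfrb went with Eng (0.71). Vwf, although endothelial, had a median of 0.64 with smooth muscle members and 0.51 with endothelial ones, and its best partner was Tie1 (0.81). Foxq1, Emcn and Abcg2 had the lowest medians with the other endothelial members, 0.02, 0.16 and 0.17. Itm2a was the closest member to Abcg2 (0.68) and also to Slco1a4 (0.81).

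Pairs were chosen for shared roles or to set genes of different cell classes side by side, and 15 of the 16 could be computed. They were tested by permutation over the rats (100000 permutations, two-sided, smallest p 1e-05), with Benjamini-Hochberg adjustment over the 15. Cldn5 and Slc2a1, the junction protein and the glucose transporter, went together (rho = 0.78, adjusted p = 5e-05; r = 0.78, adjusted p = 3.7e-05), and r was 0.72 without rn-3 and rn-26, the extremes of Cldn5. The angiopoietin receptor pair Tek and Tie1 did so too (rho = 0.73, adjusted p = 0.00022; r = 0.70, adjusted p = 0.00015), with r = 0.70 without rn-26 and rn-52. Sox17 and Sox18, related factors of one family, had rho = 0.67 (adjusted p = 0.00069) and r = 0.62 (adjusted p = 0.0013), and within the sets of libraries rho was 0.40 and 0.57. The VEGF receptors Flt1 and Kdr had rho = 0.48 (adjusted p = 0.021) and r = 0.50 (adjusted p = 0.013), but the permutation call on rho was lost without rn-9 and rn-35 (rho = 0.38, r = 0.32, adjusted p = 0.12) and without rn-6, rn-19, rn-24 and rn-42 (rho = 0.40, adjusted p = 0.13). Cldn5 and Flt1 had rho = 0.44 (adjusted p = 0.035) and r = 0.42 (adjusted p = 0.049), and the permutation call on rho was lost under 3 of the alternatives.

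Over all libraries, pairs of transporters with shared roles were not called. Slco1a4 and Slco1c1 had rho = 0.25 (adjusted permutation p = 0.25) and the efflux pumps Abcb1a and Abcg2 rho = 0.26 (adjusted permutation p = 0.25). The efflux pumps had rho = 0.40 and 0.35 within the libraries up to 31 and from 32, and with the means of the sets subtracted they were called (rho = 0.44, adjusted permutation p = 0.036). The pericyte pair Pdgfrb and Rgs5 had rho = 0.11 (adjusted permutation p = 0.59), at −0.03 within the libraries up to 31 and 0.66 within those from 32. Endothelial Cldn5 and pericyte Rgs5 had rho = 0.20 (adjusted permutation p = 0.36), at 0.02 and 0.64 within the sets. A p that misses the threshold does not show that these genes varied independently.

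Acta2 went with Tagln (rho = 0.96, adjusted p = 5e-05; r = 0.98, adjusted p = 3.7e-05) and with Myh11 (rho = 0.86, adjusted p = 5e-05; r = 0.93, adjusted p = 3.7e-05) by the same permutation test, and r without rn-19 and rn-24 was 0.97 and 0.89. With Rgs5 it had rho = 0.19 (adjusted p = 0.36). Across cell classes, Acta2 went with Cldn5 (rho = 0.56, adjusted p = 0.0057; r = 0.58, adjusted p = 0.003) and with Dcn, the decorin of meningeal and perivascular fibroblasts (rho = 0.62, adjusted p = 0.0018; r = 0.75, adjusted p = 3.7e-05). Within the libraries up to 31 and from 32, rho was 0.54 and 0.58 for Acta2 with Cldn5, and 0.88 and 0.26 for Acta2 with Dcn. Both calls were lost without the 4 libraries with the most Acta2. Without rn-6, rn-19, rn-24 and rn-42 rho was 0.33 with Cldn5 (adjusted permutation p = 0.20) and 0.38 with Dcn (adjusted permutation p = 0.14). Leaving them out also narrows the range of Acta2, so a lost call does not place the correlation in these libraries. Cldn5 and Dcn themselves had rho = 0.29 (adjusted p = 0.21).

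**Figure D4:**
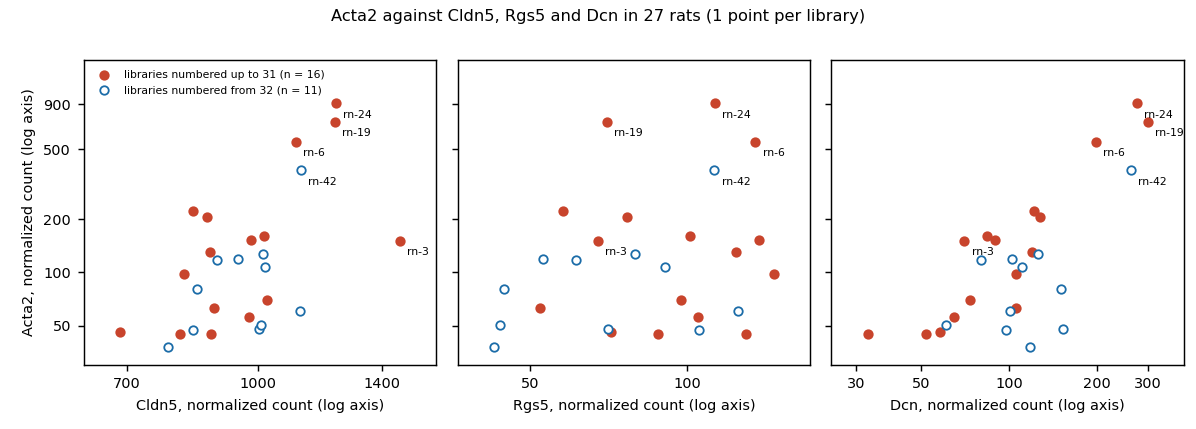
Acta2 against Cldn5, Rgs5 and Dcn in normalized counts on log axes, 1 point per library, filled for the 16 libraries numbered up to 31 and open for the 11 from 32. Libraries rn-6, rn-19, rn-24 and rn-42 stand above the other 23 in Acta2 (379 to 912 against at most 222) and also have the 4 highest levels of Dcn, while rn-3 has the highest Cldn5 with an Acta2 of 151.

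To see which members followed 1 marker of each class, every gene was regressed on the level of that anchor gene. The test was edgeR's quasi-likelihood test, Benjamini-Hochberg adjusted over all genes tested. The anchors were Cldn5 for endothelium, Rgs5 for pericytes, Acta2 for smooth muscle and Dcn for fibroblasts. A slope is the log2 change of a gene per SD of the anchor over rats. It describes the anchor gene and not its whole class: Rgs5 had rho = 0.11 with the pericyte member Pdgfrb. All 4 fits used the same 27 libraries and are given side by side.

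Part of the endothelial members followed Cldn5. With it, 10 of the 32 members tested were higher and 0 lower, where 2.03% of the 12026 genes tested were called and 1.07% were higher. They were 5 of 21 endothelial members, 1 of 5 pericyte members and 4 of 4 smooth muscle members. Pecam1 had a slope of 0.26 ± 0.04 (SE, adjusted p = 0.00046), Itm2a 0.24 ± 0.04 (adjusted p = 0.0042), Slc2a1 0.17 ± 0.03 (adjusted p = 0.0019), Esam 0.17 ± 0.03 (adjusted p = 0.016) and Sox17 0.17 ± 0.04 (adjusted p = 0.043). The median slope was 0.14 over the 21 endothelial members and 0.0042 over all genes. All 21 endothelial slopes were above 0, from 0.03 for Kdr to 0.31 ± 0.10 for Foxq1 (adjusted p = 0.065). Neither Col4a1 (0.06 ± 0.04) nor Lama4 (0.00 ± 0.04) was called. Without rn-3 and rn-26, the extremes of Cldn5, 2 of 21 endothelial members were called, Pecam1 (0.22, adjusted p = 0.037) and Slc2a1 (0.18, adjusted p = 0.014), while Esam (adjusted p = 0.062), Sox17 (adjusted p = 0.12) and Itm2a (adjusted p = 0.20) were not, where 0.325% of all genes were higher. With the set of libraries as a term 15 members were called, where 3.06% of all genes were higher, and DESeq2's Wald test called 16, where 3.22% were.

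The smooth muscle slopes on Cldn5 were larger, 0.94 ± 0.19 for Acta2 (adjusted p = 0.013), 0.85 ± 0.17 for Tagln (adjusted p = 0.014), 0.56 ± 0.15 for Myh11 (adjusted p = 0.046) and 0.52 ± 0.12 for Myl9 (adjusted p = 0.026), and Vtn had 0.25 ± 0.06 (adjusted p = 0.030). Without rn-6, rn-19, rn-24 and rn-42 the same 5 endothelial members were called and 0 of 4 smooth muscle members, whose median slope was 0.13, Vtn was not called (0.13, adjusted p = 0.24) and Myh11 had a slope of −0.10 (0.455% of all genes were higher). With the Dcn level as a term in the model, 6 endothelial members were called and again 0 of 4 smooth muscle members, with a median slope of 0.30, and Vtn was not called (0.16, adjusted p = 0.067). In that fit 3.64% of all genes were higher. Both alternatives were added after seeing the data.

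Of 32 members tested on Rgs5, edgeR called 1, Tek (0.19 ± 0.04, adjusted p = 0.039), where 0.413% of 11872 genes were called and 0.261% were higher. Of the other pericyte members, Abcc9 had a slope of 0.21 ± 0.05 (adjusted p = 0.057), Pdgfrb 0.05 ± 0.05 (adjusted p = 0.62), Vtn 0.16 ± 0.07 (adjusted p = 0.24) and Anpep −0.06 ± 0.09 (adjusted p = 0.78). The call of Tek was lost without rn-12 and rn-20 (slope 0.20, adjusted p = 0.14), without rn-39 and rn-54, the pair with the least Rgs5 (0.20, adjusted p = 0.14) and without the 4 libraries rich in Acta2 (0.19, adjusted p = 0.065), although its slope stayed near 0.19. With the set of libraries as a term, Abcc9, Cdh5, Flt1 and Tek were higher, where 0.159% of all genes were. DESeq2's Wald test called 5 members, Tek, Abcc9, Cdh5, Slco1a4 and Ocln, where 1.75% of all genes were higher, and with the Dcn level as a term edgeR called 2, where 0.435% were.

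Acta2 was followed by the whole smooth muscle class and a few others. All 3 remaining smooth muscle members were higher, Tagln by 1.13 ± 0.04 (adjusted p = 1.5e-20), Myh11 by 0.86 ± 0.05 (adjusted p = 4.2e-14) and Myl9 by 0.74 ± 0.04 (adjusted p = 1.4e-15). So were Vtn (0.34 ± 0.04, adjusted p = 2.2e-07), Vwf (0.31 ± 0.06, adjusted p = 0.00071) and Cldn5 (0.13 ± 0.04, adjusted p = 0.045). These are 6 of 32 members, where 2.11% of 12026 genes were called and 2.10% were higher. The median slope of the 22 endothelial members was 0.09, and that of Rgs5 0.11 ± 0.10 (adjusted p = 0.86). Without rn-6, rn-19, rn-24 and rn-42, Tagln, Myh11, Myl9 and Vtn (0.35, adjusted p = 0.012) were still called, and Vwf (0.40, adjusted p = 0.094) and Cldn5 (0.11) were not, where 0.513% of all genes were higher. Without rn-19 and rn-24 alone, the call of Cldn5 was lost (0.12, adjusted p = 0.77). With the set of libraries as a term 10 members were called, where 2.56% of all genes were higher.

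Dcn, a gene of another cell type, was followed by the same smooth muscle members: Acta2 had a slope of 1.07 ± 0.13 (adjusted p = 1.6e-05), Tagln 0.96 ± 0.12, Myh11 0.75 ± 0.10 and Myl9 0.64 ± 0.08 (each with an adjusted p of 1.7e-05 or 1.8e-05), and Vtn 0.26 ± 0.06 (adjusted p = 0.0082). By edgeR none of the 22 endothelial members was called, at a median slope of 0.06, and none of the basement membrane members. Vwf (slope 0.25 ± 0.07, adjusted p = 0.051) was called by DESeq2's Wald test (adjusted p = 0.016), with DESeq2 size factors in edgeR (adjusted p = 0.046) and with no filter on low counts (adjusted p = 0.041), where 1.49%, 1.50% and 1.38% of all genes were higher. In this fit 1.45% of 11963 genes were called, all of them higher. Without rn-6, rn-19, rn-24 and rn-42 edgeR called 0 genes with Dcn (0.00%), while 853 had an unadjusted p under 0.05, and Acta2 had a slope of 0.48 (adjusted p = 0.69). Without rn-19 and rn-31, the extremes of Dcn, the call of Vtn was lost (0.25, adjusted p = 0.088).

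**Figure D5:**
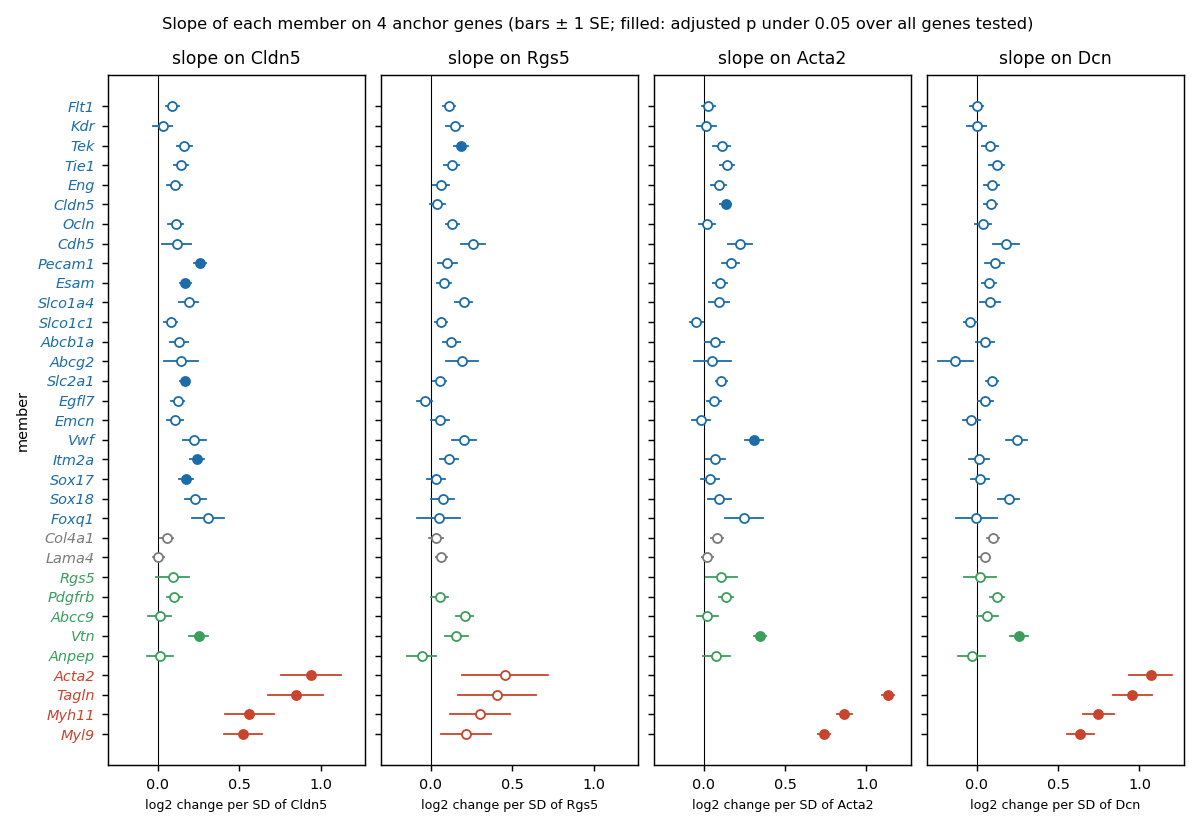
Slopes of the 33 members on Cldn5, Rgs5, Acta2 and Dcn, as log2 change per SD of the anchor with bars of ± 1 SE, filled where the adjusted p over all genes tested was under 0.05 and coloured by class as before. Red smooth muscle points are filled and far to the right with Cldn5, Acta2 and Dcn (0.52 to 1.13) and open with Rgs5, and the green filled point above them in those 3 panels is Vtn.

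Markers of cells of the brain surface moved with the smooth muscle genes. All 12 rows of a list of meningeal fibroblast genes (Dcn, Lum, Col1a1, Col1a2, Col3a1, Igf2, Slc6a13, Fmod, Aldh1a2, Slc22a6 and Ogn, the last split over 2 rows) were higher with Acta2. Their median slope was 0.96, and 2.10% of all genes were higher in that fit. With Cldn5, 2 of 12 were higher, where 1.07% of all genes were. Their slopes on Cldn5 were all above 0 (median 0.50, 0.34 to 0.63). With Rgs5, 0 of 12 were higher, where 0.261% of all genes were, at a median slope of 0.17. Their summed level ran from 420 normalized counts in rn-31 to 8285 in rn-24, a 19.7-fold range, from 420 to 8285 in the libraries up to 31 and from 528 to 5361 in those from 32. None of its rows was without reads. Of the perivascular macrophage markers, Cd163 (slope 0.56) and F13a1 (0.41) were higher with Acta2, 2 of 4 tested, their sum ran from 58.1 to 458, and Stab1 had no reads. Red blood cell genes were not called with Acta2 (0 of 4) and 3 of 4 were higher with Dcn, where 1.45% of all genes were. Their sum ran from 1443 to 6529 and was highest in rn-24, and Hba-a2 had no reads. Astrocyte, oligodendrocyte, microglia and neuron lists had 0 calls in each of the 4 fits. In these fits 0.413% to 2.11% of all genes were called, so the counts are no result about those cells. The slopes on Cldn5 were above 0 for all 6 oligodendrocyte genes (median 0.12, 0.02 to 0.17), beside a median of 0.14 for the endothelial members, and below 0 for all 8 neuron genes (median −0.07), and rn-3, the library with the most Cldn5, had the highest oligodendrocyte sum. The part of these cells in the smooth muscle and Cldn5 results was not tested.

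Further vascular genes, in lists of 106 genes outside the members of which 12 had no reads, were tested in the same fits. With Cldn5, 15 of 91 tested were higher, where 1.07% of all genes were. Of them 7 were smooth muscle genes (of 13), led by Actg2, a smooth muscle actin (1.82 ± 0.32, adjusted p = 0.005), and Des, the filament protein desmin (0.76 ± 0.16, adjusted p = 0.021). Among the other 8 were Cav1, the coat protein of caveolae (0.14 ± 0.03, adjusted p = 0.016), the amino acid transporter Slc38a5 (0.34 ± 0.08, adjusted p = 0.036), the tricellular junction protein Lsr (0.17 ± 0.05, adjusted p = 0.048) and Ramp2, the adrenomedullin co-receptor (0.17 ± 0.03, adjusted p = 0.013). With Rgs5, 4 of 89 were higher, where 0.261% of all genes were. They were the endothelial adhesion receptors Adgrl4 (0.25 ± 0.05) and Adgrf5 (0.24 ± 0.05), both at an adjusted p of 0.035, the arterial semaphorin Sema3g (0.22 ± 0.04, adjusted p = 0.028) and the pericyte ATPase Atp13a5 (0.20 ± 0.04, adjusted p = 0.028). Of 10 genes tested for the Wnt pathway that maintains the barrier, 0 were called in any of the 4 fits, in which 0.413% to 2.11% of all genes were called, so the count is no result about the pathway, and their slopes on Cldn5 ran from −0.19 (Lrp6, adjusted p = 0.12) to 0.04 (Tspan12, adjusted p = 0.40).

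With Acta2, 25 of 91 of these genes were higher, where 2.10% of all genes were. Of 13 further smooth muscle genes 12 were called, among them Des (0.98, adjusted p = 5.3e-14), Cnn1, a calponin (1.71, adjusted p = 1e-11), and Tpm2, a tropomyosin (0.62, adjusted p = 1.4e-11). Mgp, the matrix Gla protein of arterial walls, had a slope of 0.75 ± 0.07 (adjusted p = 2.8e-08), the gap junction gene Gja4 0.28 ± 0.07 (adjusted p = 0.023) and Bmx, an arterial kinase, 0.47 ± 0.11 (adjusted p = 0.011). Of the receptors' ligands, Angpt2, the antagonist of Tek signalling, had 0.72 ± 0.16 (adjusted p = 0.0091) and Bmp6, which signals through Eng complexes, 0.32 ± 0.08 (adjusted p = 0.017). Basement membrane genes Lama5, Lamb2 and Nid2 were 3 of the 5 tested, with slopes of 0.23, 0.29 and 0.53. With Dcn 16 of 90 were higher, Angpt2, Bmp6 and Mgp among them, where 1.45% of all genes were.

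The genes closest to each anchor by Spearman correlation, among 9819 genes with a mean of at least 50 counts, were of different kinds. For Cldn5 the member Slc2a1 (rho = 0.78) was second, and the nearest genes outside the members were Igfbp7 (0.81), Wfdc1, Kank3, Srgn, Csrp2, Slc35b2, Lgals9 and Tmem204. For Acta2 the members Tagln (0.96) and Myl9 (0.93) came before all others and Vtn (0.87) and Myh11 (0.86) were among the nearest, and the nearest genes outside the members were Mgp (0.87), Islr, Slc6a13, Des, Tpm2, Slc22a6, Col3a1 and Fmo1 (0.83), of which Slc6a13, Slc22a6 and Col3a1 are in the meningeal fibroblast list and Des and Tpm2 in the smooth muscle list. For Rgs5 the nearest were Abhd2 (0.79), Arrb1, Hpcal4, Tmbim6, Ncs1, Tom1l2, Camk2a and Adcy1 (0.75), of which Camk2a is a kinase of excitatory neurons and none is in a vascular list, while the closest member was Abcc9 (0.71). Within the sets of libraries, rho of Rgs5 with these 8 was 0.70 to 0.86 and 0.67 to 0.90.

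Between the sets of libraries, 3 of 33 members differed by edgeR's quasi-likelihood test, where 8.85% of 11716 genes were called higher in the libraries from 32 and 9.18% lower. Foxq1 had 42.5 to 255 normalized counts in the 16 libraries up to 31 (mean 97.2) and 39.9 to 59.3 in the 11 from 32 (mean 50.2), so the ranges overlapped at the low end (log2 difference −0.94 ± 0.20, adjusted p = 0.0013). Its difference was −0.73 without rn-3 and rn-24 (adjusted p = 0.00078). Sox18 was higher in the libraries from 32 (93.1 ± 18.2 against 70.1 ± 17.3, log2 difference 0.41 ± 0.12, adjusted p = 0.017), as was Eng (280 ± 48.1 against 236 ± 34.4, 0.25 ± 0.08, adjusted p = 0.038). The call of Eng was lost without rn-12 and rn-20 (adjusted p = 0.079) and with the Dcn level as a term (0.22, adjusted p = 0.063). The share of members called was below that of all genes, and neither depth nor, as the labels do not give it, the rat's cohort can be told apart from library number in these differences.

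None of the 4 smooth muscle members was called between the sets. Acta2 had a log2 difference of −1.07 ± 0.48 (adjusted p = 0.12), and its mean was 227 ± 263 up to 31 and 107 ± 96.3 from 32. The median difference of the 4 was −0.81, and −0.26 without rn-19 and rn-24. With the Dcn level as a term all 4 were lower in the libraries from 32, with a log2 difference of −0.98 ± 0.25 for Acta2 (adjusted p = 0.0061), where 10.2% of all genes were lower. The product of anchor and set, which tests whether a slope differs between the sets, called 0 genes by edgeR with Cldn5, Rgs5 and Acta2 (715, 1311 and 473 at an unadjusted p under 0.05), and DESeq2 called 0, 1 and 4 genes, none of them a member.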

How the data were processed

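RNA was measured in mPFC tissue of 27 male Wistar rats, 1 library per rat, as a single group. The authors deposited raw read counts per gene, made with Trimmomatic, STAR and HTSeq per the submitters' processing notes; versions, genome build, annotation and strandedness are not given in the sources used here, so overlapping genes and reads from opposite strands may be mixed. The labels and the study's methods name different library kits. Gene IDs were named from the RefSeq GRCr8 list (28157 of 36865 rows, 99.743% of counts), and promoter sequences are RefSeq GRCr8.

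Levels are DESeq2 1.42.0 median-of-ratios normalized counts, and log2 values have a pseudocount of 1. Fits used edgeR 4.0.16 (quasi-likelihood test, filterByExpr, TMM) in R 4.3.3, with calls at a Benjamini-Hochberg adjusted p under 0.05 over all genes tested. An anchor entered as the z score of its log2 level and was left out of its own calls. Correlations used scipy 1.17.1 in Python 3.11.15. Scripts were tested on simulated data. Floors are 3 counts and, as reads carried no molecular identifiers, cover counting error only. p-values measure the spread between these rats, except in the dispersion test, where they measure departure from counting error.

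The members, lists, pairs, anchors and the sets of libraries (up to 31, from 32) were chosen with earlier results of these data known. Genes outside the members are named by rule: the 3 of each list with the smallest p in each anchor fit and the 8 closest to each anchor, while cell markers and the genes of the closing section were chosen after their values were seen. Alternatives were DESeq2's Wald test, other normalizations, filters and pseudocount, Pearson correlation, the set of libraries or the Dcn level as a term, and libraries left out.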

Additional observations from a re-analysis of the deposited data

How the results depend on the processing

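Of 337 values of comparisons recomputed under alternatives, 297 were counted as unchanged, and of 362 values of single members 293 were. Counts were taken as unchanged if they moved by no more than 1.5 times, and median class correlations if they moved by no more than 0.204. Pairs and slopes were so taken if they kept their side of the threshold and, where called, their direction. A value called in neither setting could thus change its sign and still be counted as unchanged. The cause of the changes below was not tested. The count of genes that went with Cldn5, 244, was 958 with DESeq2's Wald test, 147 with no filter on low counts, 66 without rn-12 and rn-20, 707 with the set of libraries as a term, 824 with the Dcn level as a term, 40 without rn-3 and rn-26 and 144 without rn-6, rn-19, rn-24 and rn-42. Its 10 members were 16 with DESeq2, 15 with the set term, 8 with no filter on low counts, 7 without rn-3 and rn-26, 6 with the Dcn term and 5 without those 4 libraries. Of the 4 smooth muscle members, 3 were called with no filter and 3 without rn-12 and rn-20. With Rgs5 the 49 genes were 334 with DESeq2, 1 without rn-12 and rn-20, 23 with the set term, 0 without rn-39 and rn-54 (1732 at an unadjusted p under 0.05) and 5 without the 4 libraries, and its 1 member was 5, 0, 4, 0 and 0 in that order and 2 with the Dcn term. With Acta2 the 254 genes were 278 with no filter on low counts, 104 without rn-19 and rn-24, 91 with the Dcn term and 61 without the 4 libraries. Its 6 members were 10 with the set term, 5 with no filter (1 of them endothelial) and 4 without the 4 libraries. With Dcn the 173 genes were 114 without rn-19 and rn-31 and 0 without the 4 libraries, and its 5 members were then 0. The product of anchor and set had 1 call with Rgs5 and 4 with Acta2 by DESeq2. Between the sets, members called were 6 with the Dcn term.

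The smooth muscle and basement membrane members had a median correlation of −0.025 with Dcn regressed out. Cldn5 and Flt1 lost their call at rho = 0.41 without rn-12 and rn-20, 0.42 with Dcn regressed out and 0.37 without rn-3 and rn-26. Flt1 and Kdr lost it at 0.40 without the 4 libraries and 0.38 without rn-9 and rn-35, Cldn5 and Acta2 at 0.33 and Acta2 and Dcn at 0.38 without the 4 libraries, while Abcb1a and Abcg2 gained one at 0.44 with the means of the sets subtracted. The slope of Myh11 on Cldn5 was −0.10 without the 4 libraries (adjusted p = 0.68). No paired analysis was possible because the rats form 1 group. Counting error was 30.4% to 39.4% of the variance of Lama4, Ocln, Sox17 and Emcn.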

Other observations

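The library that held the most smooth muscle RNA was also extreme in other lists: rn-24 had the highest summed level of smooth muscle, pericyte, meningeal fibroblast, perivascular macrophage and red blood cell genes, and the lowest Abcg2. Library rn-3, which had the highest Cldn5, Pecam1, Itm2a, Slc2a1 and Foxq1, had the highest summed level of oligodendrocyte genes, 59785 normalized counts against a median of 27252 over the 27 libraries, and the lowest Abcc9 and Lama4. Mrc1, a marker of perivascular macrophages, was lower in the libraries numbered from 32 (log2 difference −1.52, adjusted p = 4.4e-05 by edgeR), and the summed level of that list was 58.1 to 165 there and 140 to 458 in the libraries up to 31. These values are given without an explanation.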
